A study of Mus musculus with 12 samples.

Results

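Whether a cell passes from G1 into S phase is set in large part by a small family of genes, the cyclins that switch on the G1 kinases and the inhibitors that hold those kinases off. The transcripts of 10 such genes were followed here in mouse pre-iPSCs, chosen by symbol alone, from the 20325 genes in the deposited expression values. They were the D-type cyclins Ccnd1, Ccnd2 and Ccnd3, the E-type cyclins Ccne1 and Ccne2, the Cip/Kip inhibitors Cdkn1a (p21) and Cdkn1b (p27), and the Ink4 inhibitors Cdkn2a (p16Ink4a and p19Arf), Cdkn2b (p15) and Cdkn2c (p18). Each of the 10 passed the filter of 10 or more counts in 3 or more libraries, as did 13400 genes in all.

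Pre-iPSCs are stalled reprogramming intermediates. The line used was clonal and came from Nanog-GFP reporter fibroblasts transduced with retroviral Oct4, Sox2, c-Myc and Klf4, so every library stems from 1 line that carries these transgenes. The cells had been kept on irradiated feeders and were then treated for 48 h in ESC medium without the feeder layer. The 4 conditions were DMSO (the solvent control), AA (ascorbic acid, 50 μg ml−1), 2i (1 μM of the MEK inhibitor PD0325901 with 3 μM of the GSK inhibitor CHIR99021) and AA+2i, which combined them at these doses. Each condition had 3 biological replicates, lettered A, B and C, and the 12 libraries held between 16173322 and 54392719 expected counts.

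In the textbook scheme, mitogen signals passing through MEK and ERK raise cyclin D, which activates the kinases CDK4 and CDK6 to phosphorylate the RB protein. RB then lets go of E2F transcription factors, which induce cyclin E, the partner of CDK2, and the genes of DNA replication. Ink4 proteins block CDK4 and CDK6, and Cip/Kip proteins block the CDK2 complexes. GSK3 is known to mark cyclin D1 protein for export and breakdown, a step that transcript levels do not record. Embryonic stem cells are known for a short G1 phase, with little cyclin D and with the Ink4 genes kept low, and the Cdkn2a locus is a known barrier to reprogramming.

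The effect of the agents on known target genes was looked at first. Of 9 measured ERK targets, 3 fell with 2i and 3 with AA+2i, among them Dusp6, a phosphatase that ERK induces against itself, from 62.5 ± 8.65 TPM (a level scaled for sequencing depth and transcript length, mean ± SD, n = 3) in DMSO to 6.89 ± 0.23 in 2i and 6.35 ± 0.25 in AA+2i. Dusp4 and Spry4, a phosphatase and an inhibitor of the same pathway, were the others, with log2 fold changes against DMSO of −1.58 and −1.22 in 2i and of −3.04 and −1.09 in AA+2i. Of 7 measured Wnt targets, which a GSK inhibitor is known to switch on, 3 rose with 2i (Axin2, Nkd1 and Sp5) and 4 with AA+2i (these and Tcf7). Axin2 went from 0.14 ± 0.08 TPM in DMSO to 6.76 ± 5.24 in 2i and 8.01 ± 3.08 in AA+2i. With AA alone, no gene of either list was called. Over all genes, 4.42% were called in 2i, 8.34% in AA+2i and 1.34% in AA. Among the ERK targets not called, Egr1 stood at 70.7 ± 42.7 TPM in DMSO, 1.75 ± 1.34 in 2i and 22.6 ± 28.6 in AA+2i. Ier3 stood at 69.7 ± 30.6, 71.3 ± 31.1 and 84.6 ± 30.2 in the same order.

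The library labels could also be set against markers of the cells. E-cadherin (Cdh1), an adhesion protein of epithelial and pluripotent cells, was at 43.2 ± 9.89 TPM in DMSO, and it rose with AA (log2 fold change 1.13) and AA+2i (1.71). Nanog, a pluripotency factor, likewise rose with AA (2.02) and AA+2i (3.23), Epcam with AA+2i (1.10), and Tdgf1 rose with AA (1.53) and fell with 2i (−1.97). Lin28a was not called against DMSO. It stood at 1.49 ± 0.94 TPM in DMSO, 5.02 ± 2.89 in AA, 1.52 ± 0.37 in 2i and 0.63 ± 0.18 in AA+2i. Sall4, likewise not called, stood at 38.2 ± 6.20, 41.7 ± 8.92, 29.2 ± 7.81 and 36.0 ± 3.27 in the same order. Fut4, 1 of the enzymes that make SSEA1, stayed at or below 0.12 TPM, and Pou5f1 lay between 1865 and 9673 TPM, a reading in which the retroviral transgene and the resident gene cannot be told apart. Of 13 fibroblast and feeder markers, 10 were measured well enough to test. Their summed TPM was 354 to 521 in DMSO, 247 to 350.0 in AA, 49.4 to 59.1 in 2i and 40.8 to 46.6 in AA+2i. Lum was at 0 in every library, Twist2 did not exceed 0.03 TPM, Postn 0.33 and Col1a1 2.14. Col3a1 rose with AA+2i (2.25) from 0.13 ± 0.08 TPM. Thy1 was higher, at 5.13 ± 2.31 TPM in DMSO, 12.6 ± 5.14 in AA and 1.15 ± 0.57 in 2i. Its mean in AA+2i lay between those of 2i and DMSO. Fbn1 and Prrx1 stood at 6.29 ± 3.76 and 3.13 ± 0.93 TPM in DMSO. Thy1, Fbn1 and Prrx1 were not called against DMSO. Most of the summed TPM was S100a4, at 396 ± 96.0 TPM in DMSO, which fell with 2i (−3.04) and AA+2i (−3.54). S100a4 therefore moved in the same direction as Ccnd1 below, and its part in the cyclin results was not tested.

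The reading of Cdkn2a below turns on which start site is used. The sequences just before the 2 Cdkn2a starts and the Ccne1 start are given here. They are the 250 bases upstream of the start from RefSeq on build GRCm38.p6, each on the minus strand and written 5′ to 3′. Capitals mark matches to GGGCGG (the SP1 motif) or TTTNGCGC (an E2F motif), searched on both strands, which do not overlap each other in these sequences. The Cdkn2a locus has 2 starts that lie 12427 bases apart, an upstream start that opens the p19Arf transcript and a downstream start that opens p16Ink4a, and Ccne1 is a known E2F target. In order, they lie at chr4:89294620-89294869, chr4:89282193-89282442 and chr7:38107491-38107740.

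Cdkn2a, upstream (Arf) start: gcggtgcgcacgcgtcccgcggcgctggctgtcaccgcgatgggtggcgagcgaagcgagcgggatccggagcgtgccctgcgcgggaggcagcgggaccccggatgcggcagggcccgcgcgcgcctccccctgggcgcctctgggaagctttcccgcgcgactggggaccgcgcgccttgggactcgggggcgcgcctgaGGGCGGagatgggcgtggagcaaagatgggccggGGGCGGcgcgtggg

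Cdkn2a, downstream (Ink4a) start: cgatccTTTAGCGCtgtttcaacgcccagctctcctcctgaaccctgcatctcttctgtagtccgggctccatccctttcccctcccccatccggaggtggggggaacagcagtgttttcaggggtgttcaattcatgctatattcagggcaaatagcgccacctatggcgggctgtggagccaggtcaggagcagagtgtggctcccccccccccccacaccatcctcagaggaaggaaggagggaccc

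Ccne1 start: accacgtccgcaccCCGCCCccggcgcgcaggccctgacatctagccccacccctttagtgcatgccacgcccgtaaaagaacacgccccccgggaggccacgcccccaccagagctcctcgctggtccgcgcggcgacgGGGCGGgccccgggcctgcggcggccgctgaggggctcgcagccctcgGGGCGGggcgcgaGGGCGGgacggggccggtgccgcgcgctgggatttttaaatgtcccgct

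The Arf and Ccne1 sequences consisted of 78.4% and 76.0% G and C, the Ink4a sequence of 60%. The base composition used further on is that of transcripts, not of these sequences. GGGCGG occurred 2 times before the Arf start and 4 times before the Ccne1 start, and the E2F motif 1 time before the Ink4a start. Among the 32851 RefSeq promoters cut to this length, 32.7% held GGGCGG and 1.13% held TTTNGCGC. Over the 11 promoters found for 7 of the 10 genes, 7 held GGGCGG, 1 held TTTNGCGC, and none held the AP-1 motif TGANTCA or the TCF/LEF motif CTTTGA, which occurred in 6.75% and 13.8% of all promoters. Ccnd1, Ccnd2 and Ccne2 had no entry.

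**Figure D1:**
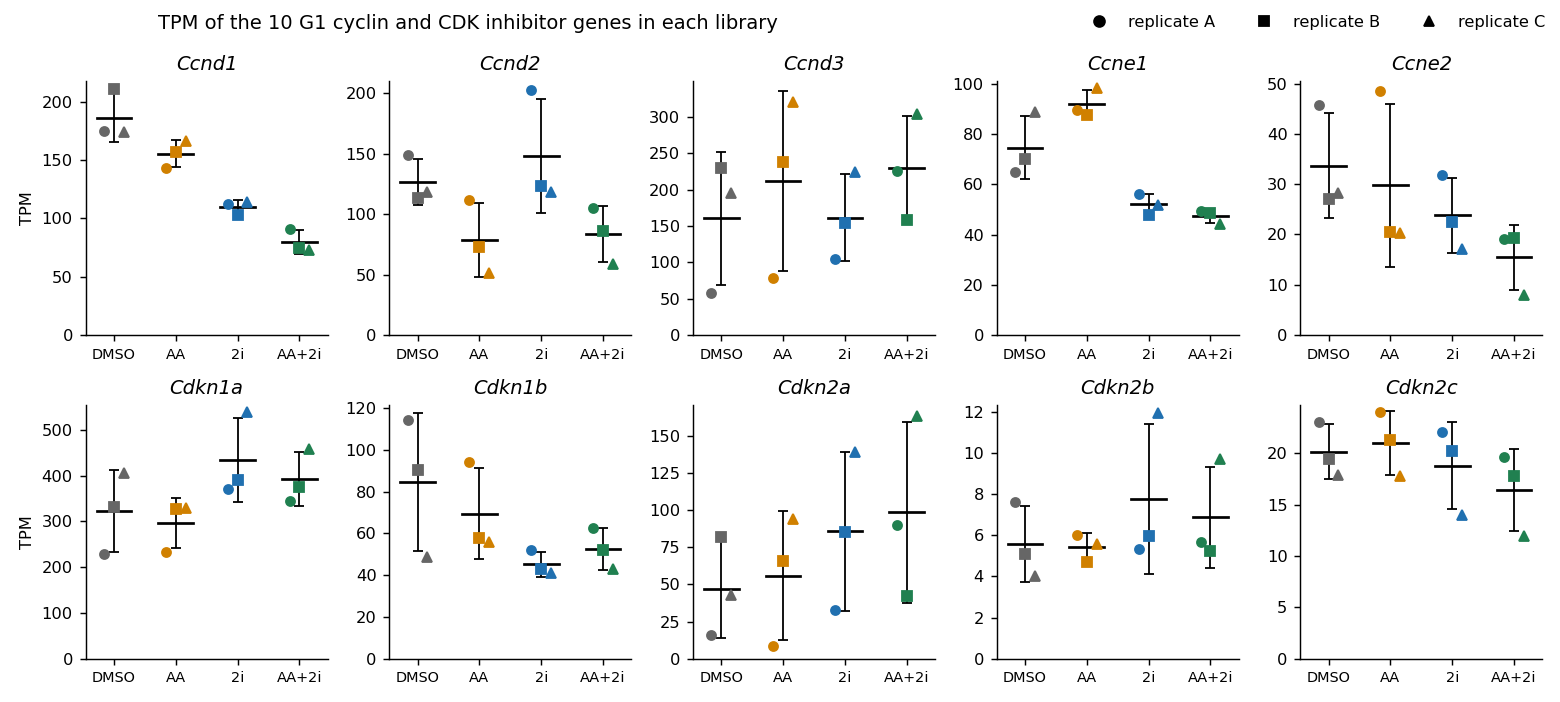
TPM of the 10 genes in each of the 12 libraries, 1 panel per gene, with the condition on the x axis and TPM from 0 on the y axis. Circles, squares and triangles are replicates A, B and C, the long bar is the mean and the whiskers are 1 SD (n = 3). Ccnd1 steps down from DMSO to AA+2i with no overlap, while the replicates of Ccnd3 and Cdkn2a spread more widely than the conditions differ.

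Across the comparisons, cyclin D1 carried the clearest change. In AA+2i against DMSO, 1 of the 10 genes was called at an adjusted p below 0.05, Ccnd1, which fell, against a background of 8.34% of all tested genes called in this comparison and 4.41% called downwards. AA against DMSO called 0 of the 10, with 1.34% of all genes called, and 1 gene (Ccnd2) had an unadjusted p under 0.05, as did 9.43% of all genes. 2i against DMSO also called 0 of the 10, with 4.42% of all genes called, and 2 genes (Ccnd1 and Cdkn1b) had an unadjusted p under 0.05, as did 16.1% of all genes. These counts come from edgeR's quasi-likelihood test over all 13400 genes, and by DESeq2 they were 0 for AA and 1 (Ccnd1, downwards) for 2i. DESeq2 called 454 and 1099 of all 13400 genes in these 2 comparisons. The 10 genes had a median log2 fold change of −0.05 in AA, 0.16 in 2i and −0.27 in AA+2i, beside −0.01, −0.02 and −0.02 over all tested genes. All 3 of these comparisons share the DMSO libraries. Since whole cultures were sequenced, fewer cells in a given phase of the cycle and less transcript per cell cannot be told apart.

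Ccnd1 encodes cyclin D1, the D-type cyclin best known as a target of ERK signalling. The gene lies on chromosome 7 at chr7:152115836-152125774 (minus strand, NCBIM37). Its TPM in replicates A, B and C was 175, 211 and 174 in DMSO, 143, 157 and 166 in AA, 113, 103 and 114 in 2i, and 91.3, 75.0 and 72.9 in AA+2i. The 12 values thus fell into 4 ranges without overlap, in the order DMSO, AA, 2i, AA+2i from highest to lowest. The share of all genes with 4 separate ranges was not counted, and shares for pairs of conditions are given further on. Between 3544 and 17890 expected counts stood behind each value.

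Ccnd1 fell with AA+2i to 0.496 of its DMSO level (log2 fold change −1.01 ± 0.16 SE, 95% confidence interval −1.37 to −0.65, adjusted p = 0.00374), and it was lower in each of the 3 letters. Leaving out all libraries of letter B or of letter C ended this call (adjusted p = 0.200 and 0.0863), with log2 fold changes of −0.92 and −1.03. Over all genes, 18 and 292 were called in those 2 fits, where 1117 were called with every library. With 2i alone the log2 fold change was −0.56 ± 0.16 and was not called (adjusted p = 0.0824), although DESeq2 did call it (adjusted p = 0.00407). With AA alone it was −0.22 ± 0.16 (adjusted p = 0.867).

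The design also asks whether AA adds to 2i and whether 2i adds to AA. Set against AA, AA+2i lowered 2 of the 10 genes, Ccnd1 and Ccne1, where 6.1% of all genes were called and 3.29% downwards. For Ccnd1 the log2 fold change was −0.79 ± 0.16 (adjusted p = 0.0152), or 0.579 of the AA level. Set against 2i, AA+2i called 0 of the 10 genes, with 0.91% of all genes called, and Ccnd1 and Ccnd2 had an unadjusted p under 0.05, as did 9.53% of all genes. There the Ccnd1 difference was −0.45 ± 0.16 (95% confidence interval −0.80 to −0.09, adjusted p = 0.318), and by DESeq2 0 of the 10 were called as well, with 468 of all 13400 genes called.

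The interaction term tests whether the joint treatment differs from the sum of the 2 single ones on the log2 scale. It was called for 0 of the 10 genes (0.0149% of all genes called, none of the 10 and 2.31% of all genes at an unadjusted p under 0.05). By DESeq2 it was also called for 0 of the 10, with 26 of all 13400 genes called. For Ccnd1 it was −0.22 ± 0.23, with a 95% confidence interval from −0.72 to 0.28.

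**Figure D2:**
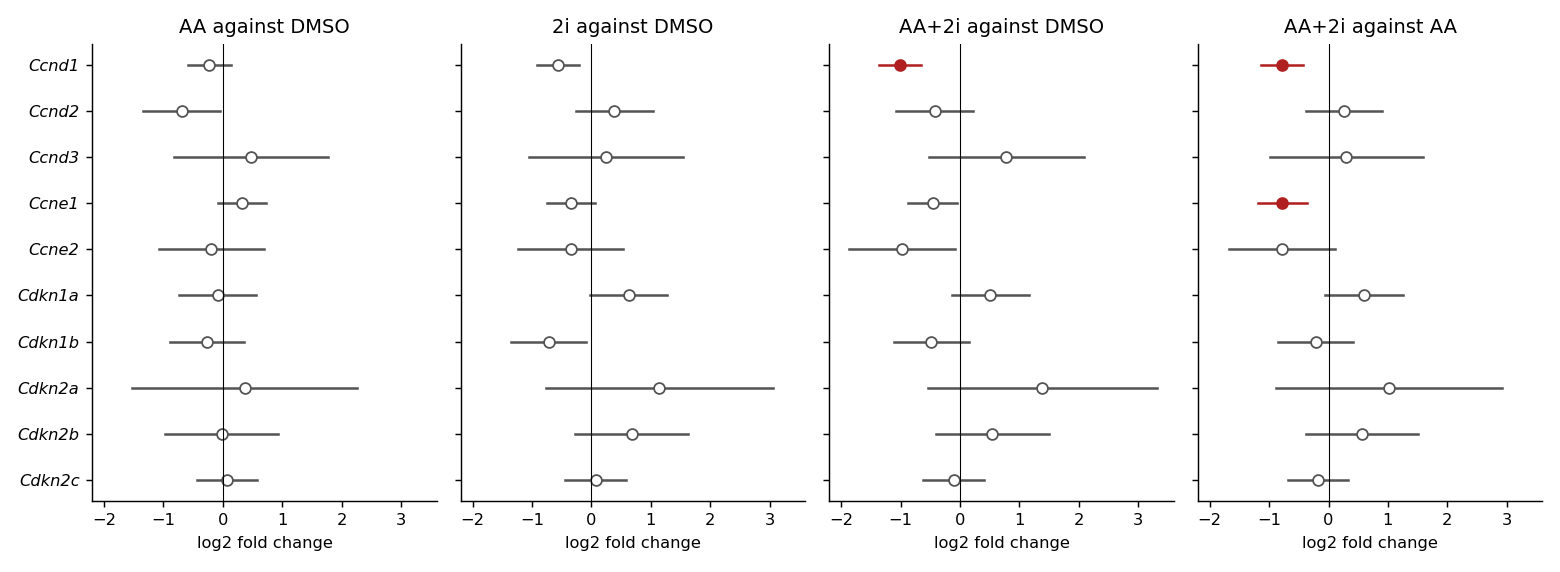
Log2 fold changes of the 10 genes (points) with 95% confidence intervals (lines) in 4 comparisons, from edgeR's quasi-likelihood test. Filled red points were called at an adjusted p below 0.05, which were Ccnd1 in AA+2i against DMSO and Ccnd1 and Ccne1 in AA+2i against AA, while the intervals of Ccnd3 and Cdkn2a are the widest of the 10 in every panel.

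Among all tested genes, the 2 whose log2 CPM ran most like that of Ccnd1 over the 12 libraries were Dusp4 (Pearson r = 0.978) and Nrp2 (r = 0.958). Both correlations describe libraries that share their conditions, so they carry no test. Dusp4 had 27.8, 37.5 and 31.2 TPM in DMSO, 19.6, 19.6 and 18.01 in AA, 8.69, 8.53 and 10.7 in 2i, and 3.78, 3.02 and 3.26 in AA+2i. Its 4 conditions took the same order as those of Ccnd1, again with no overlap, over a wider range. The other ERK targets called against DMSO did not take this order. Dusp6 averaged 62.5 TPM in DMSO, 64.3 in AA, 6.89 in 2i and 6.35 in AA+2i, and Spry4 57.8, 57.3, 22.0 and 23.8. Unlike Ccnd1, Dusp4 was also called between AA+2i and 2i (log2 fold change −1.46 ± 0.20, adjusted p = 0.00729), as 1 of the 9 ERK targets. Whether Ccnd1 followed ERK output was not tested. Nrp2, a co-receptor for semaphorins and VEGF, averaged 22.6 TPM in DMSO, 17.1 in AA, 8.41 in 2i and 5.13 in AA+2i.

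**Figure D3:**
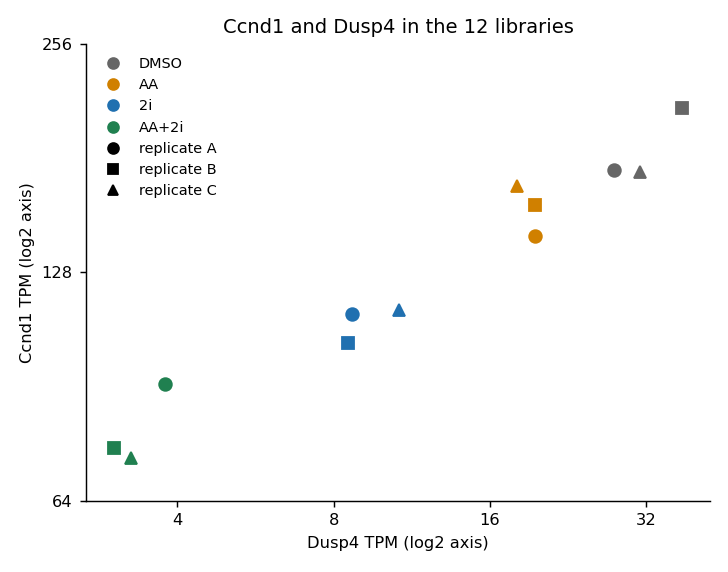
Ccnd1 TPM (y axis) against Dusp4 TPM (x axis) in the 12 libraries, both on log2 axes, with colours for the conditions and shapes for the replicate letters. The conditions form 4 separate groups along the diagonal, from DMSO (Ccnd1 174 to 211) to AA+2i (72.9 to 91.3).

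The other D-type cyclins did not follow Ccnd1. Ccnd2, which can replace cyclin D1 in many tissues (chr6:127075797-127101066, minus strand), had 149, 113 and 118 TPM in DMSO, 112, 72.7 and 51.5 in AA, 202, 124 and 119 in 2i, and 105, 86.1 and 58.9 in AA+2i. Replicate A was the highest of each condition. The AA and AA+2i values lay below all DMSO values, and those of 2i above all but the highest of them.

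Against DMSO, the log2 fold change of Ccnd2 was −0.69 ± 0.30 in AA (adjusted p = 0.468), 0.39 ± 0.29 in 2i (adjusted p = 0.547) and −0.43 ± 0.29 in AA+2i (adjusted p = 0.345). Between AA+2i and 2i it was −0.81 ± 0.30 (adjusted p = 0.328), and the 2 ranges did not overlap. None of these was called, and the Ccnd2 interaction was −0.12 ± 0.42.

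Ccnd3 (chr17:47642000-47736632, plus strand) had 57.3, 229.9 and 195 TPM in DMSO, 77.9, 237 and 321 in AA, 105, 154 and 224 in 2i, and 225, 159 and 304 in AA+2i. The lowest library of DMSO, AA and 2i was in each case replicate A, and all conditions overlapped. Its log2 fold changes against DMSO were 0.48 ± 0.59 in AA, 0.24 ± 0.59 in 2i and 0.78 ± 0.59 in AA+2i, with adjusted p of 0.950, 0.835 and 0.382.

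As the 3 D-type cyclins share their kinase partners, their levels per transcript length (TPM) were also added up. Ccnd1 made up 35.7% to 45.9% of the D-type cyclin TPM in DMSO, 30.9% to 43.0% in AA, 25.0% to 27.1% in 2i and 16.7% to 23.5% in AA+2i. The 2i and AA+2i shares lay below every share without 2i. The sum of the 3 was 381 to 554 TPM in DMSO and 320 to 436 in AA+2i, and these ranges overlapped. Ccnd3 held 15.1% to 41.5% of the sum in DMSO and 49.6% to 69.8% in AA+2i, a shift that rests on a gene whose level moved with the base composition of the libraries, described further on.

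The E-type cyclins bind CDK2 and act after the D-type cyclins. Ccne1 (chr7:38883003-38892553, minus strand) had 65.0, 70.0 and 88.8 TPM in DMSO, 89.6, 87.6 and 98.3 in AA, 56.3, 47.9 and 51.8 in 2i, and 49.2, 48.5 and 44.2 in AA+2i. All 6 libraries with 2i lay below all 6 without it. The share of all genes split in this way was not counted. TPM was also shifted downwards for the median gene with 2i, as given further on.

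Between AA and AA+2i, Ccne1 fell to 0.583 of its level (log2 fold change −0.78 ± 0.19, 95% confidence interval −1.19 to −0.37, adjusted p = 0.0316), in each of the 3 letters. Both this call and that of Ccnd1 were lost when only the AA and AA+2i libraries were fitted (adjusted p = 0.0767 and 0.0827). They also depended on single libraries, since of 15 fits that left out 1 library or 1 letter Ccne1 was called in 4 and Ccnd1 in 9, with log2 fold changes of −0.83 to −0.70 and −0.95 to −0.69. The adjusted p of Ccne1 over those fits ran from 0.0172 without DMSO C to 0.40 without letter B, and that of Ccnd1 from 0.0150 without DMSO B to 0.417 without letter B.

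Against DMSO, Ccne1 had log2 fold changes of 0.32 ± 0.19 in AA (adjusted p = 0.741), −0.34 ± 0.19 in 2i (adjusted p = 0.407) and −0.46 ± 0.19 in AA+2i (adjusted p = 0.158), none of them called. Its interaction was −0.43 ± 0.26 with a 95% confidence interval of −1.01 to 0.14.

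Ccne2 (chr4:11118498-11131926, plus strand) had 45.6, 27.1 and 28.2 TPM in DMSO, 48.5, 20.5 and 20.4 in AA, 31.9, 22.4 and 17.1 in 2i, and 19.1, 19.4 and 7.98 in AA+2i. Replicate A was the highest in DMSO, AA and 2i, and the AA+2i values lay below those of DMSO and of AA. In AA+2i the log2 fold change against DMSO was −0.97 ± 0.41 (95% confidence interval −1.86 to −0.08, adjusted p = 0.171). Those of AA and 2i were −0.19 ± 0.40 and −0.35 ± 0.40 (adjusted p = 0.958 and 0.676).

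Of the inhibitors, Cdkn1a, the p53 target that encodes p21, was the most abundant in every library (chr17:29227924-29237667, plus strand). Its TPM was 228, 332 and 406 in DMSO, 234, 327 and 329 in AA, 370.5, 391 and 539 in 2i, and 345, 376 and 459 in AA+2i. Replicate A was again the lowest of each condition, and the ranges of 2i and AA+2i overlapped that of DMSO through its replicate C. The AA+2i values lay above all AA values.

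Within each letter Cdkn1a was higher in 2i than in DMSO, by 0.71, 0.60 and 0.60 on the log2 CPM scale, and it was higher in AA+2i than in DMSO by 0.64, 0.46 and 0.46. The fitted log2 fold changes were −0.09 ± 0.30 in AA (adjusted p = 0.968), 0.63 ± 0.30 in 2i (95% confidence interval −0.03 to 1.28, adjusted p = 0.334) and 0.51 ± 0.30 in AA+2i (adjusted p = 0.286), and 0.60 ± 0.30 for AA+2i against AA (adjusted p = 0.347). None was called.

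Cdkn1b encodes p27, which restrains CDK2 in resting cells and whose protein level is set largely by breakdown (chr6:134870419-134875531, plus strand). It had 114, 90.1 and 48.9 TPM in DMSO, 94.4, 57.7 and 56.1 in AA, 52.0, 42.8 and 40.9 in 2i, and 62.8, 52.2 and 42.7 in AA+2i. The DMSO replicates ranged widely and DMSO C lay among the values of 2i and AA+2i. The log2 fold change was −0.72 ± 0.29 in 2i (95% confidence interval −1.35 to −0.08, adjusted p = 0.237), −0.27 ± 0.29 in AA (adjusted p = 0.950) and −0.48 ± 0.29 in AA+2i (adjusted p = 0.293).

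The Ink4 genes differed more among libraries than among conditions. Cdkn2a (chr4:88920377-88940557, minus strand) had 16.1, 81.7 and 42.6 TPM in DMSO, 8.40, 65.6 and 93.8 in AA, 32.7, 85.0 and 139 in 2i, and 89.7, 42.2 and 163 in AA+2i. These values rested on 72 to 1939 expected counts. Replicate A was the lowest in DMSO, AA and 2i but not in AA+2i, and all conditions overlapped.

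For Cdkn2a the log2 fold changes against DMSO were 0.37 ± 0.86 in AA, 1.15 ± 0.87 in 2i and 1.38 ± 0.87 in AA+2i (adjusted p = 0.960, 0.546 and 0.315). The 95% confidence interval for AA+2i, −0.54 to 3.31, runs from a fall to 0.688 to a rise to 9.90 times the DMSO level. Leaving out 1 library or 1 letter moved this log2 fold change to between 0.68 and 2.31.

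Cdkn2b, its neighbour on the same chromosome (chr4:88952198-88956941, minus strand), had the lowest mean TPM of the 10 genes in every condition, on 46 to 179 expected counts per library. It had 7.60, 5.09 and 4.04 TPM in DMSO, 6.03, 4.69 and 5.59 in AA, 5.34, 5.96 and 11.9 in 2i, and 5.68, 5.25 and 9.69 in AA+2i. The highest values were those of replicate C with 2i. The log2 fold changes were −0.02 ± 0.43 in AA, 0.68 ± 0.43 in 2i and 0.54 ± 0.43 in AA+2i (adjusted p = 0.996, 0.486 and 0.401).

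Cdkn2c, which encodes p18, lies apart from the Cdkn2a locus on chromosome 4 (chr4:109333481-109339794, minus strand). Its TPM was 23.1, 19.4 and 17.9 in DMSO, 24.0, 21.3 and 17.8 in AA, 22.1, 20.2 and 14.0 in 2i, and 19.7, 17.7 and 11.98 in AA+2i. Within each condition replicate A was the highest and C the lowest. Its log2 fold changes were 0.07 ± 0.23, 0.07 ± 0.23 and −0.11 ± 0.23 (adjusted p = 0.966, 0.882 and 0.756), with 95% confidence intervals within −0.62 and 0.58.

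Counting only whether the TPM ranges of 2 conditions overlapped, 2 of the 10 genes stood apart from DMSO with AA (Ccnd1 and Ccnd2, where 9.49% of all genes did), 2 with 2i (Ccnd1 and Ccne1, beside 19.9%) and 4 with AA+2i (Ccnd1, Ccnd2, Ccne1 and Ccne2, beside 32.1%). In AA+2i against AA it was 4 (Ccnd1, Ccne1, Ccne2 and Cdkn1a, beside 24.5%), and against 2i it was 2 (Ccnd1 and Ccnd2, beside 16.1%). These ranges are on the TPM scale, on which the median of all genes was itself shifted, with log2 differences from DMSO of −0.13 in 2i and −0.15 in AA+2i by limma on log2(TPM + 1).

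The spread between replicates had a feature in common. In each library, the departure of all genes from their mean over the 12 libraries was smoothed along the G and C content of the transcript, and its value at 60% GC ranged from −1.73 in DMSO A and −1.49 in AA A, through −0.56 in 2i A, to 1.14 in AA+2i C. The value was −0.06 in AA+2i B and 0.51 in AA+2i A. Library A of the 3 other conditions thus held fewer reads of GC-rich transcripts, whereas AA+2i A did not. Condition and base composition moved together to that extent, and the mean of DMSO was the lowest of the 4.

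Some of the 10 genes followed this curve closely. Over the 12 libraries, Pearson r between a gene's log2 CPM and the curve at 60% GC was 0.97 for Ccnd3 (59.9% GC) and 0.96 for Cdkn2a (57.7% GC), and −0.92 for Ccne2, whose transcript of 35.0% GC was lower in GC than all but 0.135% of tested genes. It was 0.75 for Cdkn1a, 0.29 for Cdkn2b, −0.76 for Cdkn2c, −0.71 for Cdkn1b and −0.47 for Ccnd2. For the 2 genes that were called, Ccnd1 (50.9% GC) and Ccne1 (52.7% GC), it was −0.26 and −0.18. Transcripts of tested genes had a median of 50.5% GC.

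When the curve of each library was taken out before the test, Ccnd1 in AA+2i against DMSO kept its size (log2 fold change −1.02, adjusted p = 0.000317) and Ccne1 reached the threshold (−0.62, adjusted p = 0.00881), where 10.8% of all genes were then called downwards. Ccnd3 turned from 0.24 to −0.31 with 2i and from 0.78 to −0.12 with AA+2i, and Ccne2 in AA+2i went from −0.97 to −0.46 (adjusted p = 0.0880). Cdkn1a went from 0.63 to 0.35 with 2i and from 0.51 to 0.12 with AA+2i (adjusted p = 0.200 and 0.642), and Cdkn1b in AA+2i from −0.48 to −0.14 (adjusted p = 0.599). Cdkn2a went from 1.15 to 0.68 with 2i and from 1.38 to 0.66 with AA+2i (adjusted p = 0.376 and 0.333), and Cdkn2b in 2i from 0.68 to 0.081 (adjusted p = 0.941). With AA+2i Cdkn2b turned from 0.54 to −0.22 and Cdkn2c from −0.11 to 0.24, and with AA Cdkn2a turned from 0.37 to −0.08. The part of base composition in the differences between conditions was not tested beyond this.

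**Figure D4:**
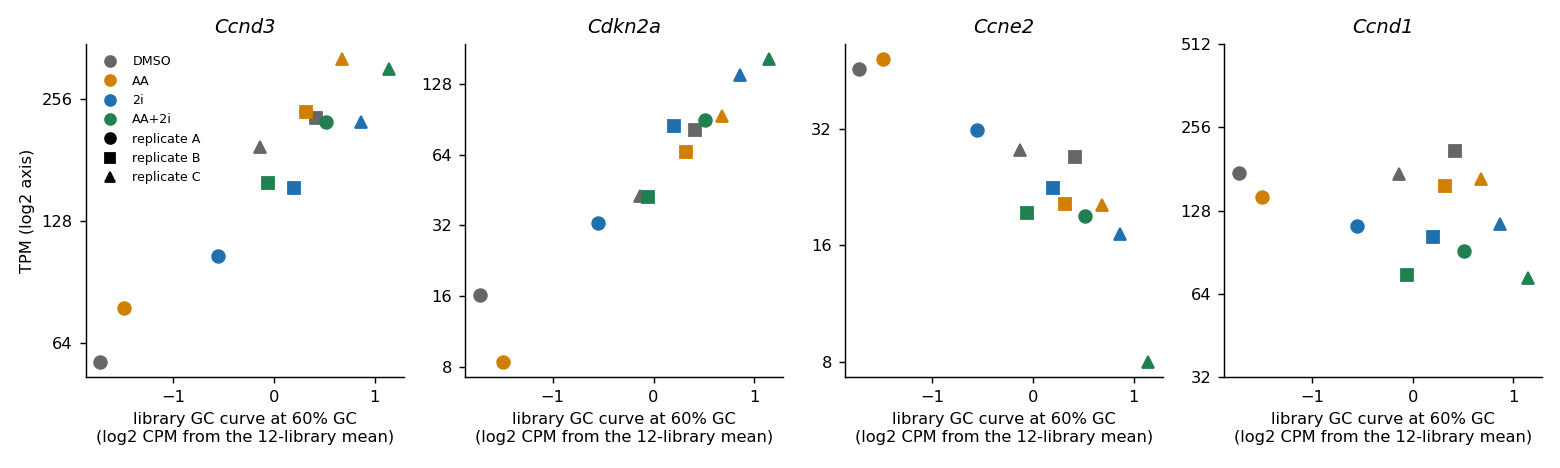
TPM (log2 axis) of Ccnd3, Cdkn2a, Ccne2 and Ccnd1 in the 12 libraries against the value of each library's GC curve at 60% GC, in log2 CPM from the mean of the 12 libraries. Ccnd3 and Cdkn2a rise and Ccne2 declines along the curve, while Ccnd1 separates by condition (colours) at any value of it.

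The Cdkn2a row adds up p19Arf and p16Ink4a, which are different proteins from different first exons. Some of that mixture could be read from the length the authors' quantification gave the gene in each library, a mean over its transcripts weighted by their abundance. The longest annotated transcript, from the upstream Arf start, has 929 bases and the p16Ink4a transcript has 850 in GENCODE, whose lengths were taken to hold for the RefSeq transcripts that were quantified. The length fell short of 929 bases by 0, 0.27 and 0 bases in DMSO A, B and C, and by 0, 1.05 and 1.21 in AA. In 2i it fell short by 1.44, 1.07 and 3.38 bases, and in AA+2i by 3.01, 1.84 and 8.58. On these lengths the shorter transcript would have made up 0% to 10.9% of Cdkn2a transcripts, the rest being the Arf transcript. The highest share, in AA+2i C, was also that of the library with the highest GC curve. The 929 bases matched the length quantified in DMSO A, while the 850 could not be checked. For Ccnd1 the quantified length was 3796 bases against 3740 in GENCODE, and those of Ccnd2 and Ccne1 differed too. Another length of the shorter transcript would change the shares.

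**Figure D5:**
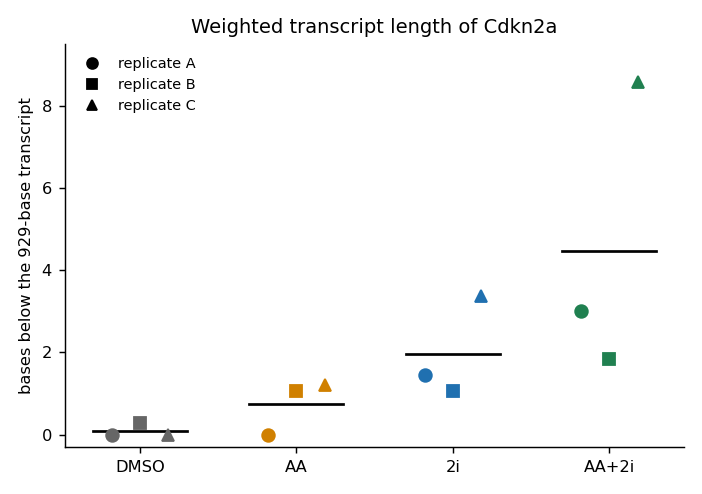
Bases by which the abundance-weighted transcript length of Cdkn2a fell short of its 929-base transcript, per library and condition, with bars for the means and shapes for the replicate letters. The 6 libraries with 2i lie between 1.07 and 8.58 bases and the 3 DMSO libraries at or below 0.27, while AA B and AA C (1.05 and 1.21) lie at the lower end of those with 2i.

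The shortfall averaged 3.22 ± 2.78 bases (SD, n = 6) in libraries with 2i and 0.422 ± 0.561 (n = 6) in those without. Without AA+2i C the difference went from 2.80 to 1.73 bases. This measure and its split by 2i were chosen after the values had been seen, so they are a description with no test. Counts of Cdkn2a were lowest in AA A and DMSO A (72 and 118), where a share of a few percent amounts to only a few reads.

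The partners and targets of the 10 genes were taken as lists. Among 8 kinases and activators of G1 and S phase, Cdk6, a kinase partner of the D-type cyclins, fell with AA+2i (log2 fold change −1.34 ± 0.31, adjusted p = 0.0241) from 56.7 ± 15.3 TPM in DMSO to 19.6 ± 7.27. It stood at 35.9 ± 11.8 in AA and 27.0 ± 7.79 in 2i, neither called. The other kinase partner, Cdk4, was more abundant, with 540 ± 188 TPM in DMSO and 643 ± 41.1 in AA+2i, and was not called (0.47 ± 0.33). The median of the 8 in AA+2i was −0.11, beside −0.02 for all genes. Ccna1, the germ-cell cyclin A, was the 1 gene of this list to fall in AA+2i against AA (−1.19 ± 0.29, adjusted p = 0.0368), and it was singled out after its values were seen. Its level was low, at 2.22 ± 0.49 TPM in AA and 0.85 ± 0.14 in AA+2i. Over all genes, 3.29% were called downwards in that comparison.

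Downstream of the cyclins, 0 of 13 RB family and E2F genes and 0 of 15 E2F-driven S-phase genes were called in any of the 5 comparisons of conditions. Over all genes, 1.34% were called in AA, 4.42% in 2i and 8.34% in AA+2i against DMSO. For AA+2i the share was 0.91% against 2i and 6.1% against AA, so a count of 0 in lists this small says little. In AA+2i against DMSO 4 and 3 of them had an unadjusted p under 0.05, as did 24.8% of all genes. The medians there were −0.39 and −0.27, beside −0.02 for all genes. The summed TPM of the 15 S-phase genes was 3248 to 3818 in DMSO, 3256 to 3866 in AA, 2631 to 3180 in 2i and 2190 to 2759 in AA+2i, and the highest library with 2i lay just below the lowest without it. That gap is smaller than the shift of the TPM scale itself between these conditions, given above for the median of all genes. Neither the 2 other inhibitors, Cdkn1c and Cdkn2d, nor any of 9 genes for the breakdown of G1 cyclins and inhibitors was called. Of the 9, 0 had an unadjusted p under 0.05 in any of the comparisons. Over all genes that share was 9.43% in AA, 16.1% in 2i and 24.8% in AA+2i against DMSO. For AA+2i it was 9.53% against 2i, and 2281 of 13400 genes against AA. Cdkn1c (p57) was low, at 1.24 ± 0.40 TPM in DMSO and 2.73 ± 2.15 in AA+2i, and Cdkn2d (p19Ink4d) stood at 49.3 ± 17.6 and 52.6 ± 6.78.

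Of 17 p53 targets besides Cdkn1a, 0 were called against DMSO in any condition, at medians of −0.27 in AA, 0.22 in 2i and 0.07 in AA+2i, and 3, 1 and 7 had an unadjusted p under 0.05, beside 9.43%, 16.1% and 24.8% of all genes. Over all genes, 1.34%, 4.42% and 8.34% were called in these 3 conditions. By the same test 1 of the 17 rose in AA+2i against AA, the kinase gene Plk2 (1.29 ± 0.29, adjusted p = 0.0219), named after its value was seen. Of all 13400 genes, 376 rose there. The locus of Cdkn2a and Cdkn2b is known to be silenced by Polycomb proteins and switched on by ETS factors. Of 15 genes in a list of such regulators and the neighbouring gene Mtap, Ets1 fell with AA (−1.66 ± 0.35, adjusted p = 0.0444) and rose with 2i (1.48 ± 0.34, adjusted p = 0.0318), at a low level of 1.39 ± 0.49 TPM in DMSO, 0.433 ± 0.0850 in AA, 3.36 ± 0.69 in 2i and 0.810 ± 0.0458 in AA+2i. No other gene of that list was called against DMSO. Mtap, next to Cdkn2a, had 89.6 ± 25.7 TPM in DMSO and 60.7 ± 14.1 in AA+2i.

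Most of these lists gained calls when the GC curve of each library was taken out, as all genes did. In 2i against DMSO, with 7.75% of all genes then called downwards and 4.69% upwards, the RB family and E2F genes gave 4 lower, the kinases and activators 2 lower, the p53 targets 1 higher, and the regulators of the Cdkn2a locus 1 higher and 2 lower. In AA+2i against DMSO, with 10.8% called downwards, 5 RB family and E2F genes, 3 S-phase genes, 3 kinases and activators, 2 p53 targets and 1 regulator of the locus were lower. In AA+2i against AA, with 8.52% called downwards and 6.69% upwards, 3 RB family and E2F genes, 2 S-phase genes, and 1 gene each of the kinases, p53 targets and locus regulators were lower, while 2 p53 targets and 1 regulator were higher. The 9 genes for the breakdown of cyclins and inhibitors, Cdkn1c and Cdkn2d gave 0 calls in these comparisons with the correction as well.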

How the data were processed

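Expression in the 12 libraries was measured by single-end RNA sequencing of poly(A) libraries (TruSeq). The authors trimmed and quality-filtered the reads, aligned them with Bowtie to RefSeq messenger RNAs of mouse build mm9 (NCBIM37) and quantified them with RSEM 1.2.4 without use of strand. The deposited values are RSEM's expected counts, TPM (levels scaled for depth and transcript length) and mean transcript lengths per gene. 1 malformed TPM cell, of a gene not named here, was recomputed from its count and length.

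From there on, the rounded expected counts of the 13400 genes that reached 10 counts in 3 or more libraries went into edgeR 4.0.16 (R 4.3.3), in 1 model of the 4 conditions with RLE factors, quasi-likelihood dispersions and 8 residual degrees of freedom. The Benjamini-Hochberg adjusted p was taken over all of these genes, and a gene was called below 0.05. Changes are log2 fold changes ± SE, with 95% confidence intervals. The authors used EBSeq, which was not run here. Alternatives were TMM factors, DESeq2 1.42.0, limma 3.58.1 on log2(TPM + 1), other count filters, fits of only the conditions compared, a replicate block, a correction for GC content (a loess curve of span 0.4 per library, with GC known for 13291 tested genes) and leaving out libraries.

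The letters A, B and C were not stated to come from separate thaws or days, so p-values measure the spread between these samples. Total expected counts of 16173322 to 54392719 set the precision of low genes, and no interval here covers more than the spread between libraries. Genes of 12 lists were considered. Named besides the 10 genes were, from each list, at most 4 genes called against DMSO, and the 2 genes most like Ccnd1. Cdk4, Cdkn1c, Cdkn2d, Mtap, Ccna1, Plk2, Fut4, Pou5f1, Lin28a, Sall4, Lum, Twist2, Postn, Col1a1, Thy1, Fbn1, Prrx1, Egr1 and Ier3 fall outside that rule and were added after their values were seen. The genes and lists were chosen with earlier results of these data known. Positions of genes are those of GENCODE vM1 on NCBIM37, and promoter sequences are from RefSeq (GRCm38.p6). No build was converted into the other.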

Additional observations from a re-analysis of the deposited data

How the results depend on the processing

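Over the 9 alternatives that kept all libraries, Ccnd1 was called lower in AA+2i against DMSO in 9, with log2 fold changes of −1.22 to −0.99 and adjusted p of 1.485e-09 to 0.0486. TMM factors and either count filter changed no count of called genes among the 10. DESeq2, limma and the GC correction each called 1 gene in 2i against DMSO (Ccnd1), and limma and the GC correction called 2 in AA+2i against DMSO (Ccnd1 and Ccne1). Over all genes, DESeq2 and limma called 1099 and 620 of 13400 in 2i against DMSO, and the GC correction 1653 of 13291. In AA+2i against DMSO, limma called 1114 and the GC correction 2656. limma on log2(TPM + 1) moved the median of all genes by −0.13 in 2i, −0.15 in AA+2i and −0.14 in AA+2i against AA, and its values are shifted by as much. It split the calls over all genes into 404 higher and 710 lower in AA+2i against DMSO (526 and 591 in the test reported) and 272 and 542 in AA+2i against AA (376 and 441). Fitting only the conditions compared left 0 of the 10 called in AA+2i against AA, with 447 of all 13400 genes called. The cause of these changes was not tested, other than that this fit has fewer samples.

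The replicate letters were used as a replicate block, although deviations of same-letter libraries did not all run together (18 pairs, mean r = 0.38, from −0.55 to 0.87; 11 of 12 libraries correlated best with their own letter). With the replicate block 1 gene was called in AA against DMSO (Ccnd2, lower), 2 in 2i (Ccnd1 lower, Cdkn1a higher), 4 in AA+2i (Ccnd1, Ccne1 and Ccne2 lower, Cdkn1a higher), 1 in AA+2i against 2i (Ccnd2, lower) and 3 in AA+2i against AA (Ccnd1 and Ccne1 lower, Cdkn1a higher). With the GC correction and replicate block these numbers were 1, 3, 2, 3 and 3. Over all genes, the block called 594, 1782, 4229, 606 and 1992 of 13400 in these comparisons, in the same order. The GC correction and block together called 1491, 3374, 4845, 1571 and 3772 of 13291. Over all genes, calls in AA+2i against DMSO went from 1117 to 1879 with DESeq2, 2656 with the GC correction, 4229 with the block, 4845 with both, 601 with only those conditions and 729 among genes with 10 counts in every library.

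Directions that turned were all of values not called. Under the GC correction, and with the block added, these were Ccnd3 in 2i (−0.31 and −0.30) and AA+2i (−0.12 and −0.11), Ccne2 in 2i (0.17 and 0.18), Cdkn2a in AA (−0.076 and −0.19), Cdkn2b in AA+2i (−0.22 and −0.070), Cdkn2c in AA+2i (0.24 and 0.25) and, with both alone, Ccne2 in AA (0.0099). Under limma they were Cdkn2a in AA (−0.018) and Cdkn2c in 2i (−0.11).

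Leaving out 1 library or 1 letter gave 0 to 1 called in AA+2i against DMSO and 0 to 2 in AA+2i against AA. Over all genes these fits called 18 to 1406 and 7 to 890. Signs turned in AA for Ccne2 (−0.68 to 0.14), Cdkn1a (−0.26 to 0.18), Cdkn1b (−0.52 to 0.083), Cdkn2a (−0.25 to 0.90), Cdkn2b (−0.22 to 0.32) and Cdkn2c (−0.048 to 0.23), in 2i for Ccnd3 (−0.15 to 0.52) and Cdkn2c (−0.10 to 0.22), and in AA+2i for Cdkn2b (−0.059 to 1.05) and Cdkn2c (−0.23 to 0.044).

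Counts were lowest for Cdkn2b and Cdkn2a, with as few as 46 and 72 in a library. The 72 of Cdkn2a came from AA A, which held more counts in total than DMSO C, where Cdkn2a had 317. Cdkn2a also followed the GC curve (Pearson r = 0.96). With 3 libraries a condition, the intervals of Cdkn2a and Ccnd3 do not exclude large changes either way. Transcript levels say nothing of cyclin or inhibitor protein, much of whose control is by breakdown. Cell cycle phase was not measured in these libraries.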
